A study of Saccharomyces cerevisiae with 48 samples.

Results

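Ribosome footprints were set against mRNA in diploid budding yeast (Saccharomyces cerevisiae) harvested at a cell size of 55 fl. All 6 libraries with that size label entered, 3 of footprints and 3 of mRNA, out of 48 libraries in the series. The footprint and the mRNA library of a replicate came from 1 pool of cells, so that pools A, B and C gave 3 pairs. Every cell was of the laboratory strain BY4743, a diploid, grown in rich glucose medium (YPD) at 30°C with no drug or mutation added. Centrifugal elutriation had isolated newborn, unbudded cells by size; these were left to grow until they reached 55 fl, and cells of that size from several rounds were combined to reach the number needed. A pool is therefore a mixture of many elutriated fractions and not 1 culture, and the same was done at 7 other sizes between 40 and 75 fl.

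A ribosome covers a short stretch of the mRNA it is reading and shields it from nuclease, and sequencing these stretches counts ribosomes on each gene. The footprints of a gene divided by its mRNA, called translational efficiency, reflect how densely ribosomes occupy that mRNA. In budding yeast, cells that reach a critical size pass Start, and the transcription factors SBF and MBF then switch on genes for DNA replication and budding. Footprints on those transcripts show whether they were also being read.

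Only genes that reached 10 reads in each mRNA library of the series were listed, 3301 in all, so that rare transcripts, among them all 16 listed haploid mating genes and all 16 listed meiosis genes, were not counted. The footprint libraries held 759223 (pool A), 2030525 (B) and 5659096 (C) counted reads, the last being the deepest footprint library of the series. The mRNA libraries held 4271664 (A), 3380597 (B) and 2644582 (C). In footprint pool A 11 genes had no read, and in the other 5 libraries every gene had at least 1. Across genes, log2 CPM (reads scaled to a common library size) of footprints correlated between pools with Pearson's r of 0.90 to 0.98, and those of mRNA with 0.90 to 0.99, the highest value being between pools B and C in each assay. Footprints against mRNA of the same pool gave 0.42 in pool A, 0.55 in B and 0.56 in C (3301 genes, a description, since genes are not replicates). Pool A stood apart in its content. The 7 counted core histone genes took 0.714% of footprint reads in pool A, against 0.256% in B and 0.220% in C, and 1.28%, 0.453% and 0.397% of mRNA reads in the same order of pools. Whether such a difference lay in more cells or in more RNA per cell cannot be told apart in pooled cells.

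Among the counted genes footprint levels were spread more widely than mRNA levels. The mean log2 CPM over the 3 pools had an SD across genes of 2.09 for footprints and 1.42 for mRNA. Genes were kept by their mRNA reads alone, which cuts off low mRNA levels but not low footprint levels. How much of the contrast this made was not tested. Of the 3301 genes, 1082 were higher in footprints than in mRNA, which is 32.8% of the genes tested, and 1112 were lower, which is 33.7% (edgeR quasi-likelihood test, adjusted p under 0.05). Of the 2194 calls, 2180 had 1 sign in all 3 pools, and 456 of the higher and 435 of the lower calls were past 2 log2 units. Without pool A 1255 genes were higher and 1304 lower. The difference of a gene, footprint minus mRNA on the log2 scale, correlated across genes between pools with r of 0.88 (A and C), 0.90 (A and B) and 0.96 (B and C).

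The zero of this difference was set by the scaling between assays and not by the number of ribosomes. With scale factors computed over the 6 libraries together, the median gene lay at -0.10. With factors computed within each assay, so that the totals of counted reads set the zero, the median moved by -1.10 to -1.20, and 523 genes were higher and 2003 lower. Directions below are therefore best read against the median gene. Counts of a list under this second scaling are given beside the first as "within assays". Those counts are to be read beside the 523 higher and 2003 lower of all 3301 genes. Each assay also has its own library chemistry, and a difference between assays holds what each favours; how far that shaped the values was not tested.

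**Figure D1:**
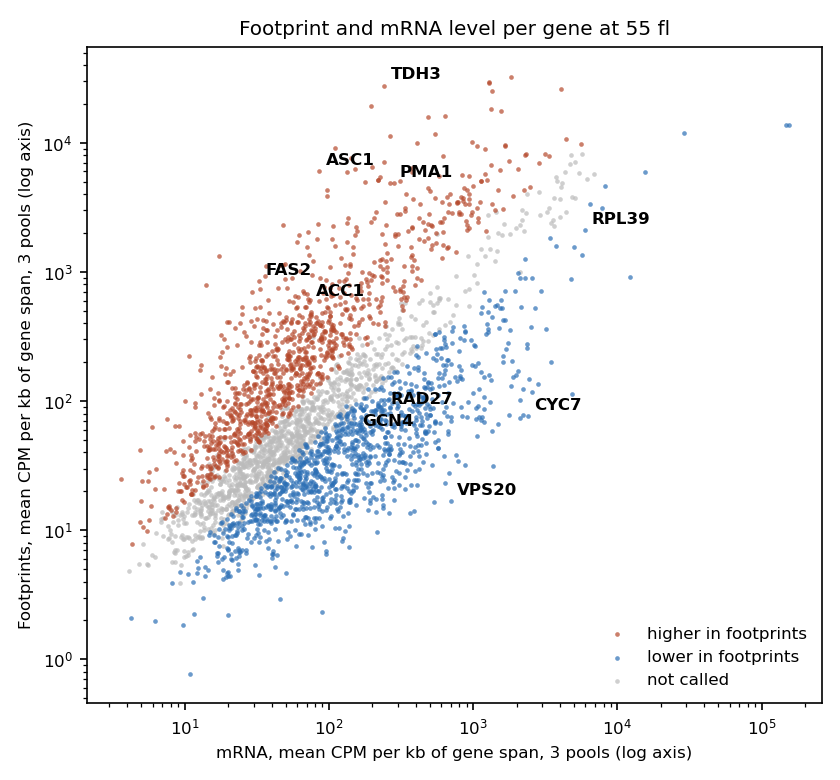
Mean footprint level (vertical) against mean mRNA level (horizontal) of each gene at 55 fl, in CPM per kb of gene span on log axes, over 3 pools; 1 point is 1 of 3260 genes with a known span. Red points were higher and blue points lower in footprints by the test, grey points were not called; TDH3 and ASC1 lie far above the main cloud, VPS20 and CYC7 far below it.

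The 10 highest genes by the naming rule, which asks for at least 20 CPM of mRNA and 20 footprint reads, included 4 of glycolysis and 2 whose products work on the ribosome. TDH3, the main gene of glyceraldehyde-3-phosphate dehydrogenase in glycolysis (chromosome VII, 882812 to 883810, build R64), had 47414, 19265 and 16635 CPM of footprints in pools A, B and C, against 286, 198 and 241 CPM of mRNA. Its footprints exceeded its mRNA in every pool, and the difference was 6.84 log2 (SE 0.53, adjusted p = 1.82e-05). By mean CPM per kb of gene span TDH3 ranked 4 in footprints but only 629 in mRNA. How far its mRNA level was shaped by the mRNA assay was not tested. The closely similar copies TDH2 (6.63) and TDH1 (6.38) were next, and the sources do not state how reads that match more than 1 copy were divided. PGK1, which encodes phosphoglycerate kinase of the same pathway, had 17120, 4777 and 6532 CPM of footprints, against 243, 152 and 137 CPM of mRNA (5.74, SE 0.58).

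ASC1, which encodes a ribosome-bound scaffold protein of the small subunit (chromosome XIII, 499456 to 500688), had 9417, 7239 and 5676 CPM of footprints, against 69.4, 128 and 120 CPM of mRNA, a difference of 6.14 (SE 0.41, adjusted p = 1.53e-05). Its span holds a small non-coding RNA gene on the annotation, whose reads may have been counted with it. SAH1, an enzyme that clears S-adenosylhomocysteine in the methylation cycle, differed by 5.59 (SE 0.44), and SSB2, a chaperone that binds nascent chains on the ribosome, by 5.47 (SE 0.37). SSB1, its near-identical partner, differed by 5.40. FAR11, a gene of the recovery from pheromone arrest, had 1503, 2163 and 3090 CPM of footprints, against 45.5, 40.0 and 35.7 CPM of mRNA (5.80, SE 0.39). Its footprints were erratic at other sizes. Relative to the median gene of each pool, its difference was 12.2, 5.63 and 13.9 at 60 fl in pools A, B and C. At 70 fl it was 12.4, 6.56 and 6.94. The mean log2 mRNA level of FAR11 stayed between 5.73 (45 fl) and 6.42 (70 fl). The cause was not tested, and the 55 fl value of FAR11 is best read with caution.

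RUD3, which encodes a Golgi matrix protein, was also among the 10 highest, but its pools differed widely. It had 7540, 481 and 10656 CPM of footprints in pools A, B and C, against 210, 120 and 94.7 CPM of mRNA, so that the differences were 5.16, 2.00 and 6.81 (5.46 fitted, SE 0.98, adjusted p = 0.000888). Pool B was the low one at 55 fl. The footprints of RUD3 were erratic at other sizes too. Relative to the median gene of each pool, its difference was 9.57, 2.34 and 9.43 at 70 fl in pools A, B and C. At 75 fl it was -0.26, 2.56 and 8.84. Its mean log2 mRNA level ran from 6.91 (40 fl) to 8.26 (75 fl). The cause was not tested, and the 55 fl value of RUD3 is also best read with caution. The tenth of the highest, YKL153W, is a name that the reference table does not hold. It had 3442, 5525 and 14757 footprint reads, against 740, 345 and 335 mRNA reads. GPM1, the glycolytic gene of the adjacent name on the other strand, had 5019, 8186 and 23885 footprint reads, against 2325, 1330 and 1065 mRNA reads. The sources do not state whether reads were counted by strand, and reads of the 2 genes cannot be told apart. In all, 41 counted names were not in the reference table, of which 23 were higher and 8 lower with a median of 1.45. Without them, a choice made after seeing the data, 1061 genes were higher and 1090 lower.

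The 10 lowest genes by the same rule included 2 of the ESCRT pathway and several that act on RNA. VPS20, a subunit of the ESCRT-III complex that buds membranes into endosomes (chromosome XIII, 421484 to 422149), had 11.1, 13.9 and 8.42 CPM of footprints in pools A, B and C, against 817, 300 and 278 CPM of mRNA. The difference was -5.43 (SE 0.55, adjusted p = 4.12e-05), and it was below -4 in each pool. CHM7, which acts with ESCRT-III at the nuclear envelope, differed by -4.98 (SE 0.50). CYC7, which encodes the minor isoform of cytochrome c (chromosome V, 79636 to 79977), had 39.9, 18.7 and 19.6 CPM of footprints, against 1141, 694 and 620 CPM of mRNA, a difference of -5.09 (SE 0.43).

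Among those that act on RNA, CGR1, a factor of large subunit assembly, differed by -5.39 (SE 0.45), RRP14 by -4.82 (SE 0.31) and LRP1, a cofactor of the nuclear exosome that trims RNA, by -4.85 (SE 0.30). RRP14 had 82.0, 90.2 and 118 CPM of footprints, against 2472, 2802 and 2977 CPM of mRNA, which placed the 3 pools within a narrow range in each assay. MFT1, a subunit of the THO complex that acts in mRNA export, differed by -4.80 (SE 0.44). CWC15, a splicing factor, had 0, 12.5 and 13.6 CPM of footprints, against 312, 268 and 267 CPM of mRNA (-4.70, SE 0.49), the 0 being in the shallowest footprint library. HMRA1 (-5.40, SE 0.34) is a silent copy of a mating type gene that shares its sequence with the expressed copy, so that its reads are uncertain, and YER066C-A (-5.62, SE 0.65) is not in the reference table.

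**Figure D2:**
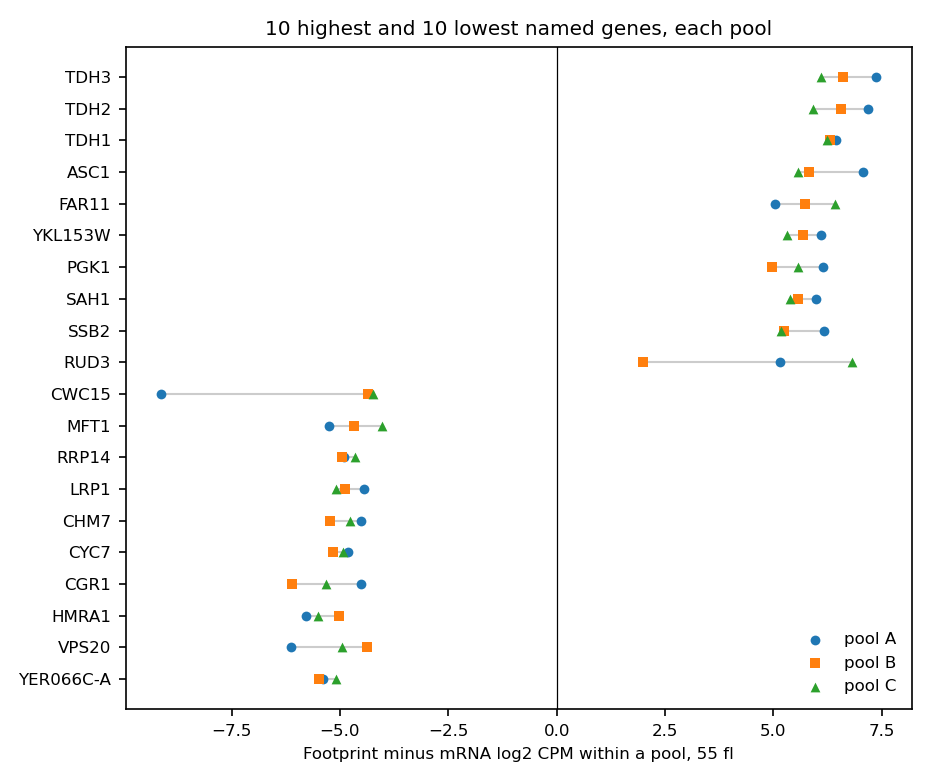
Footprint minus mRNA log2 CPM within each of pools A, B and C at 55 fl (horizontal) for the 10 highest and 10 lowest genes by the naming rule (vertical); the grey line joins the lowest and highest pool. RUD3, with 2.00 in pool B, and CWC15, with -9.12 in pool A where no footprint was counted, show the widest spread among the 20.

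The lists of tRNA synthetases, of elongation, termination and initiation factors and of cytosolic ribosomal proteins had medians above that of all genes, with members that differed. All 19 tRNA synthetases, the enzymes that charge tRNAs with amino acids, were higher in footprints (median 2.25, against -0.10 over all genes), and 12 of them within assays. KRS1, of lysyl-tRNA synthetase, was among those that lost the call there (0.09, adjusted p = 0.799), and its adjusted p was 0.0521 without pool B and 0.0633 without pool C. FRS2, a subunit of phenylalanyl-tRNA synthetase, had 516, 651 and 630 CPM of footprints, against 45.5, 69.2 and 72.4 CPM of mRNA (3.27, SE 0.29, adjusted p = 2.66e-05). Of 17 counted elongation and termination factors 14 were higher and 1 lower, 82.4% and 5.9% beside 32.8% and 33.7% over all genes. Their median was 3.38, with 12 higher and 2 lower within assays. TEF1, one of a pair of identical genes for the factor that delivers tRNAs to the ribosome, had 48078, 36923 and 37918 CPM of footprints, against 1331, 2075 and 1910 CPM of mRNA (4.53, SE 0.33). EFT2, which encodes the translocation factor eEF2, differed by 4.56 and YEF3, which encodes the fungal elongation factor 3, by 2.56. The lower one was DOM34 (-1.12, SE 0.23), a factor that rescues stalled ribosomes.

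Initiation factors were split. Of 29 counted, 16 were higher and 4 lower, which is 55.2% and 13.8% beside 32.8% and 33.7% over all genes. Their median of 1.10 was above that of all genes. With factors computed within each assay it was -0.01, beside -1.20 over all genes, with 8 higher and 13 lower. DED1, an RNA helicase that helps ribosomes scan, had 1263, 2243 and 2519 CPM of footprints, against 67.6, 68.1 and 63.4 CPM of mRNA (4.92, SE 0.36). PAB1, the poly(A)-binding protein, differed by 4.24 and SUI2, the alpha subunit of eIF2, by 3.07. Small factors that bind the scanning ribosome lay at the other end. TIF11 (eIF1A) had 324, 341 and 328 CPM of footprints, against 850, 1750 and 1511 CPM of mRNA (-2.05, SE 0.32), and SUI1 (eIF1) differed by -1.50 (SE 0.30).

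Of 82 counted genes of the large cytosolic ribosomal subunit list 55 were higher and 7 lower (median 1.69), which is 67.1% and 8.5%. Of 56 of the small subunit list 32 were higher and 8 lower (median 1.23), which is 57.1% and 14.3%. Over all genes these shares were 32.8% and 33.7%. With factors computed within each assay the counts were 37 and 22 for the large and 21 and 18 for the small subunit. RPP0, the stalk protein of the large subunit, had 8238, 7021 and 4799 CPM of footprints, against 168, 248 and 264 CPM of mRNA (4.88, SE 0.36, adjusted p = 1.75e-05). RPS2 of the small subunit differed by 2.75 (SE 0.28). RPL39, one of the smallest ribosomal proteins, had 1157, 1129 and 1156 CPM of footprints, against 2162, 4315 and 3194 CPM of mRNA (-1.49, SE 0.31, adjusted p = 0.00207); without pool B its adjusted p was 0.0688. RPL41A, whose protein is smaller still, differed by -3.49 (SE 0.67). Most ribosomal protein genes come in near-identical pairs, so that the share of each copy is uncertain. Together the 138 genes took 26.6%, 26.5% and 21.5% of footprint reads in pools A, B and C, against 25.3%, 34.2% and 30.8% of mRNA reads.

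Mitochondrial ribosomal proteins ran the other way, with 3 of 52 counted members higher and 30 lower (median -1.005; 1 and 49 within assays). MRPS16 had 24.4, 16.6 and 23.2 CPM of footprints, against 646, 414 and 430 CPM of mRNA (-4.55, SE 0.33, adjusted p = 1.63e-05). MRP21 differed by -3.63 and RSM18 by -2.95. MRPS12 was a higher member (1.98, SE 0.29). Of 130 counted ribosome biogenesis factors 38 were higher and 38 lower, which is 29.2% each way and near the 32.8% and 33.7% over all genes. Within assays 12 were higher and 73 lower, and the median was -1.09 in place of 0.02. This is near the median of -1.20 over all genes under that scaling. NSR1, a nucleolar protein needed for ribosomal RNA processing, had 623, 1953 and 2189 CPM of footprints, against 102, 161 and 193 CPM of mRNA (3.39, SE 0.50). NOP53, which acts late in large subunit assembly, had 77.6, 95.7 and 136 CPM of footprints, against 1429, 1477 and 1604 CPM of mRNA (-3.84, SE 0.31), and LOC1 differed by -4.48.

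Chaperones were mostly higher, 6 of 7 counted ribosome-associated ones with 1 lower (JJJ1, a co-chaperone in ribosome assembly, -2.64), the same counts within assays, and 18 of 29 general folding chaperones with none lower (14 and 9 within assays). CPR1, a cytosolic cyclophilin, had 3721, 2334 and 1858 CPM of footprints, against 114, 108 and 108 CPM of mRNA (4.58, SE 0.36), a name next to the unmatched YDR154C. SSC1, the mitochondrial Hsp70, differed by 3.44 and YDJ1, an Hsp40, by 3.12. Of 36 counted proteasome genes 10 were higher and 8 lower, 27.8% and 22.2% beside 32.8% and 33.7% over all genes. Within assays 2 were higher and 20 lower, beside 523 and 2003 of all 3301 genes. SEM1, a very small subunit of the lid, had 37.7, 55.5 and 69.2 CPM of footprints, against 892, 956 and 955 CPM of mRNA (-4.07, SE 0.31). PRE5, a subunit of the core particle, differed by 1.89.

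**Figure D3:**
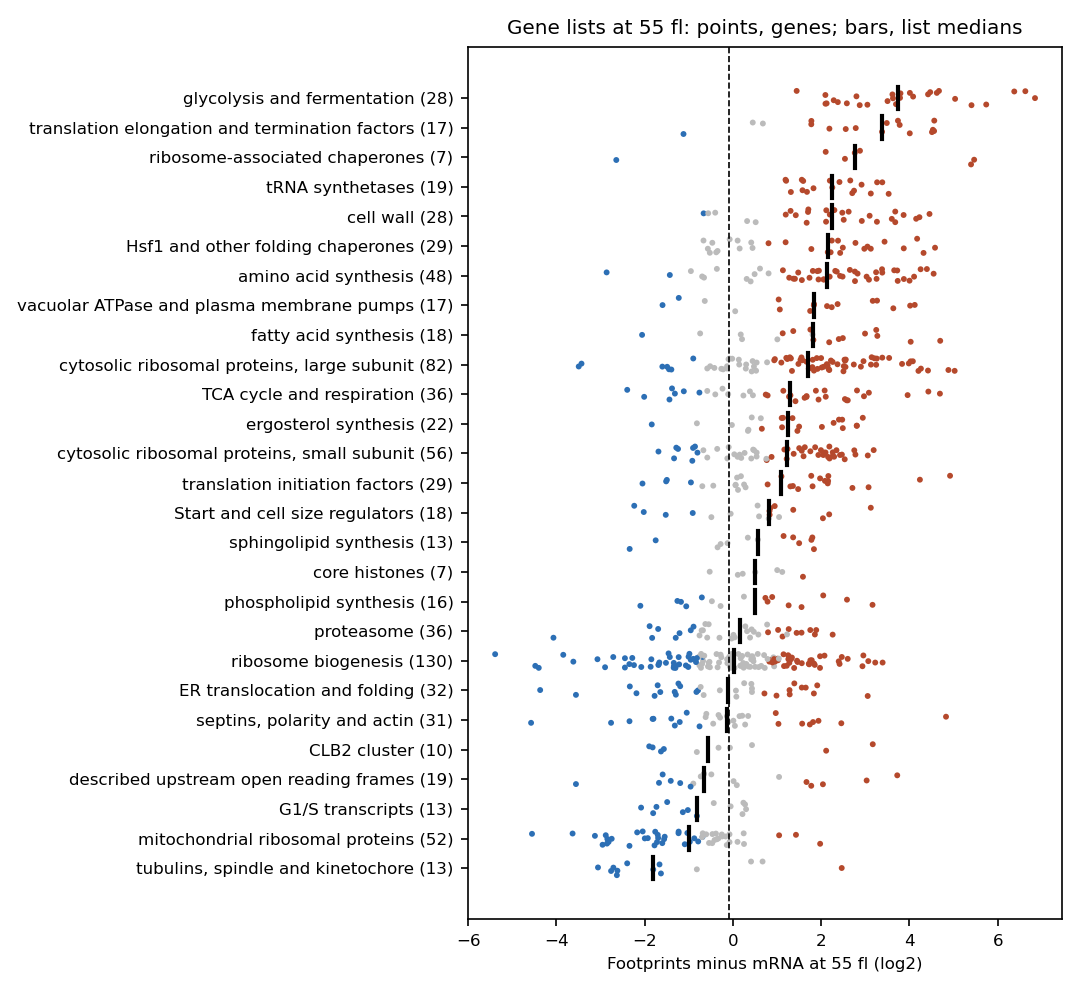
Footprint minus mRNA difference at 55 fl (horizontal, log2) of every counted gene of 27 lists (vertical, number counted in brackets), ordered by the list median (black bar); the dashed line is the median over all genes, -0.10. Red points were higher, blue lower and grey not called; glycolysis (median 3.74) is at the top, and tubulins, spindle and kinetochore (median -1.81) at the bottom.

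Most listed genes of sugar and amino acid metabolism were higher in footprints. All 28 counted genes of glycolysis and fermentation (median 3.74) were higher, beside 32.8% over all genes. With factors computed within each assay 27 of the 28 were higher. They took 19.2%, 11.4% and 12.3% of footprint reads in pools A, B and C, against 1.62%, 1.17% and 1.34% of mRNA reads. PFK2, a subunit of phosphofructokinase, had 2214, 2080 and 2045 CPM of footprints, against 80.8, 110 and 95.2 CPM of mRNA (4.47, SE 0.29, adjusted p = 1.53e-05). CDC19, the main pyruvate kinase, differed by 5.41, ENO2 (enolase) by 4.67 and ADH1 (alcohol dehydrogenase) by 3.50.

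Of 48 counted genes of amino acid synthesis 37 were higher and 2 lower, 77.1% and 4.2% beside 32.8% and 33.7% over all genes. Their median was 2.12, with 28 higher and 6 lower within assays. LEU4, the first enzyme of the leucine branch, differed by 3.72 (SE 0.26), with 3.71, 3.68 and 3.72 in pools A, B and C. ILV3, which acts in isoleucine and valine synthesis, differed by 4.55. Of 36 counted genes of the TCA cycle and respiration 22 were higher and 7 lower, 61.1% and 19.4% (median 1.29). Within assays 10 were higher and 11 lower (median 0.19, beside -1.20 over all genes). ATP1, the alpha subunit of the mitochondrial ATP synthase, had 2172, 1202 and 1174 CPM of footprints, against 47.6, 64.7 and 63.6 CPM of mRNA (4.69, SE 0.37), and ATP2 differed by 3.96. CIT2, the citrate synthase of peroxisomes, was lower (-2.40, SE 0.50). PMA1, the proton pump of the plasma membrane, had 14760, 12704 and 12823 CPM of footprints, against 556, 875 and 887 CPM of mRNA (4.12, SE 0.32), and 13 of 17 counted pump and vacuolar ATPase genes were higher with 2 lower (11 and 4 within assays). Of 28 counted cell wall genes 23 were higher and 1 lower (median 2.25; 16 and 4 within assays), among them SCW4 (3.87) and GAS5 (3.60).

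Enzymes of fatty acid synthesis, the subject that the study's title names, were high as well, with pool A apart from the others. Of 18 counted genes 12 were higher and 1 lower (median 1.81), 66.7% and 5.6% beside 32.8% and 33.7% over all genes. With factors computed within each assay 9 were higher and 4 lower. ACC1, acetyl-CoA carboxylase, which makes the building block of fatty acids, had 1467, 4882 and 5371 CPM of footprints in pools A, B and C, against 505, 480 and 489 CPM of mRNA. Its mRNA was level over the pools while its footprints were low in pool A, so that the within-pool differences were 1.54, 3.35 and 3.46 (fitted 2.99, SE 0.46, adjusted p = 0.00039).

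Footprints of both subunits of fatty acid synthase were also lowest in pool A. FAS1 had 2453, 7949 and 8501 CPM of footprints, against 449, 324 and 386 CPM of mRNA (4.03, SE 0.49), and FAS2 had 1788, 5824 and 6881 CPM of footprints, against 199, 168 and 193 CPM of mRNA (4.70, SE 0.51). OLE1, the desaturase that puts the double bond into fatty acids, had 394, 3274 and 5369 CPM of footprints, against 1275, 564 and 754 CPM of mRNA. The assays were crossed in pool A: the differences were -1.69, 2.54 and 2.83, and the fit did not pass the test (1.80, SE 0.73, adjusted p = 0.0531). It passed with all 3 pools by median-of-ratios factors (adjusted p = 0.0465) and by DESeq2 (0.0099), and without pool A in edgeR (2.71, adjusted p = 1.11e-05). ELO2, an elongase, differed by 3.27 (SE 0.30) with 3.70, 3.32 and 2.85 in pools A, B and C. The lower member was HFA1 (-2.06, SE 0.40), the mitochondrial acetyl-CoA carboxylase.

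Of the other lipid pathways, ergosterol genes were mostly higher, while the phospholipid and sphingolipid lists held larger shares of lower members. Of 22 counted ergosterol genes 15 were higher and 1 lower, beside 32.8% and 33.7% over all genes (8 and 5 within assays). ERG6, a sterol methyltransferase, had 645, 761 and 666 CPM of footprints, against 86.1, 102 and 108 CPM of mRNA (2.81, SE 0.26). The lower one was IDI1, the isomerase that makes an early precursor, with 113, 164 and 179 CPM of footprints, against 638, 498 and 510 CPM of mRNA (-1.84, SE 0.28). Of 16 counted phospholipid genes 8 were higher and 5 lower (3 and 8 within assays). The lower share of 31.25% was near the 33.7% over all genes. Higher ones included URA7, a CTP synthase (3.16), and CHO2, a methyltransferase (2.58). Of 13 counted sphingolipid genes 6 were higher and 2 lower, 46.2% and 15.4% (1 and 6 within assays). TSC3, a very small subunit of the first enzyme, had 84.2, 90.2 and 85.8 CPM of footprints, against 327, 563 and 431 CPM of mRNA (-2.34, SE 0.28), and the hydroxylase SUR2 differed by 1.80.

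The G1/S transcripts, targets of SBF and MBF, lay below the median gene as a list. Of 13 counted members none was higher and 7 were lower, which is 53.8% beside 33.7% over all genes (median -0.82; 0 and 12 within assays). ASF1, a histone chaperone, had 48.8, 70.8 and 48.9 CPM of footprints, against 228, 253 and 236 CPM of mRNA (-2.08, SE 0.26, adjusted p = 0.000116). PRI2, a subunit of the primase that starts DNA strands, had 46.5, 84.6 and 70.2 CPM of footprints, against 215, 271 and 235 CPM of mRNA (-1.81, SE 0.28). In both genes every footprint value lay below every mRNA value on the joint scaling. A single sign in all 3 pools was common to 2180 of the 2194 calls.

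RAD27, the nuclease that removes primer flaps at replication forks, had 70.9, 120 and 101 CPM of footprints, against 272, 289 and 270 CPM of mRNA (-1.49, SE 0.26, adjusted p = 0.000812). CLB5, the S-phase cyclin, differed by -1.13 (SE 0.22), and RFA3, a subunit of the single-strand binding protein, by -1.73 (SE 0.34). SIC1, the inhibitor that holds back Clb5 kinase before replication, had 44.3, 29.8 and 22.7 CPM of footprints, against 119, 154 and 153 CPM of mRNA (-2.24, SE 0.29). CLN3, the cyclin that acts at the top of Start, lay at 1.05 (SE 0.45) and did not pass (adjusted p = 0.0667); it passed by DESeq2 (adjusted p = 0.0419) and limma-voom (0.0441) with all 3 pools, and in edgeR without pool A (0.0116) or without pool C (0.0451). SCH9, a kinase of nutrient signalling in the list of 18 counted Start and size regulators, was higher (2.04, SE 0.24). In that list 8 were higher and 4 lower (3 and 6 within assays). These shares of 44.4% and 22.2% stood beside 32.8% and 33.7% over all genes.

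Core histone genes were close to balance between the assays. Of 7 counted, 1 was higher and none lower, beside 32.8% and 33.7% over all genes. HTB1, a histone H2B gene, had 1168, 503 and 303 CPM of footprints, against 308, 166 and 178 CPM of mRNA (1.59, SE 0.49, adjusted p = 0.0164). The call of HTB1 was lost within assays (0.51, adjusted p = 0.361) and with all 48 libraries in the fit (1.48, adjusted p = 0.088). The other 6 were between -0.53 (HTA1) and 1.12 (HHF2) and did not pass. With pool as a block, which compares the assays within each pool, HHF1 (0.76, adjusted p = 0.0199) and HHF2 (0.81, adjusted p = 0.0219) passed as well. Without pool A, HHF1 (adjusted p = 0.0227), HHF2 (0.0378), HHT1 (0.0188) and HTA1 (-0.66, 0.00591) passed. Within assays HTA1 was lower (-1.60, adjusted p = 0.0325), and HTA2, HHF1, HHT1 and HHT2 were below 0 without passing.

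Among the 27 lists with counted genes, that of tubulins, spindle and kinetochore had the lowest median. Of its 39 listed genes 13 were counted, of which 1 was higher and 9 lower (median -1.81, and 1 and 10 within assays). CSE4, the centromeric histone, had 37.7, 20.1 and 24.3 CPM of footprints, against 322, 175 and 149 CPM of mRNA (-3.06, SE 0.39). MIF2, of the inner kinetochore, differed by -2.63 and CNM67, of the spindle pole body, by -2.62. The higher one was TUB2, beta-tubulin, with 1064, 425 and 370 CPM of footprints, against 147, 98.8 and 87.7 CPM of mRNA (2.47, SE 0.44). Of 29 listed CLB2 cluster genes, expressed before mitosis, 10 were counted. Among these 2 were higher and 4 lower (2 and 7 within assays). PMP1, a small regulator of the proton pump, differed by 3.17 and SPO12, which acts in mitotic exit, by -1.90.

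The actin cytoskeleton held a wide contrast. ACT1, actin, had 5095, 2915 and 2221 CPM of footprints, against 117, 113 and 130 CPM of mRNA (4.83, SE 0.39). TPM2, a tropomyosin that coats actin cables, had 113, 27.1 and 30.9 CPM of footprints, against 1884, 1065 and 776 CPM of mRNA (-4.57, SE 0.63), and its partner TPM1 differed by -2.76. In the list of septins, polarity and actin 8 of 31 counted were higher and 10 lower (3 and 23 within assays). In the endoplasmic reticulum list 10 of 32 were higher and 13 lower (2 and 21 within assays). Neither share is far from the 32.8% and 33.7% over all genes. Within assays 523 of all 3301 genes were higher and 2003 lower. SRP21, a small subunit of the signal recognition particle, had 59.8, 68.7 and 75.3 CPM of footprints, against 1380, 1517 and 1355 CPM of mRNA (-4.37, SE 0.28), while PDI1, the disulfide isomerase, differed by 3.05.

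Genes with described regulation by upstream reading frames or by the leader went both ways, 5 of 19 counted being higher and 6 lower. These shares of 26.3% and 31.6% were below the 32.8% and 33.7% over all genes. The highest member was LEU4 (3.72) and the lowest HAC1. GCN4, the activator of amino acid synthesis whose leader holds short reading frames that keep ribosomes off the main one in rich medium, had 88.6, 36.8 and 20.1 CPM of footprints, against 120, 135 and 132 CPM of mRNA. Its mRNA was level and its footprints lower in every pool (-1.59, SE 0.45, adjusted p = 0.0113); the adjusted p was 0.0508 without pool B and 0.0681 without pool C. HAC1, the unfolded protein response gene whose unspliced mRNA is held from translation, had 62.1, 11.8 and 22.2 CPM of footprints, against 293, 368 and 324 CPM of mRNA (-3.56, SE 0.51, adjusted p = 0.000252). CPA1, which an arginine-sensing upstream peptide represses, lay at -0.65 (SE 0.36, adjusted p = 0.138) and passed with pool as a block (-0.73, adjusted p = 0.0105). Over the list of 19 counted genes the median was -0.65, and within assays 3 were higher and 13 lower. Of all 3301 genes, 523 were higher and 2003 lower within assays.

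Gene length went with the difference. Genes with a span under 450 bases had a median of -1.38, with 18.1% higher and 59.0% lower (249 genes). Those of 450 to under 900 bases had -0.72 (705 genes), those of 900 to under 1800 bases 0.01 (1255 genes), and those of 1800 bases or more 0.21, with 389 higher and 234 lower of 1051 genes. The order of the 4 classes was the same in each pool. Across 3260 genes Spearman's rho between span and difference was 0.25, a description only. Span here is that of the gene on the annotation, introns included, and no length of the protein was used. What length did in each assay, and its part in the lists, was not tested.

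Within lists the same order was seen in some but not all. Ribosome biogenesis genes had medians of -0.89 at 450 to under 900 bases (24 genes), 0.07 at 900 to under 1800 (54) and 0.39 at 1800 or more (49). Genes of the TCA cycle and respiration had -0.49 under 450 bases (14 genes) and 2.32 at 900 to under 1800 (14). Glycolysis, whose members all span 450 bases or more, was high in each of its classes (3.61 at 900 to under 1800 bases, 23 genes). Against the median of all genes of the same span class, the large subunit ribosomal list was 2.26 higher and the small subunit list 1.95 higher, the core histones 1.89 higher, and the mitochondrial ribosomal list 0.31 lower and the G1/S list 0.65 lower.

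**Figure D4:**
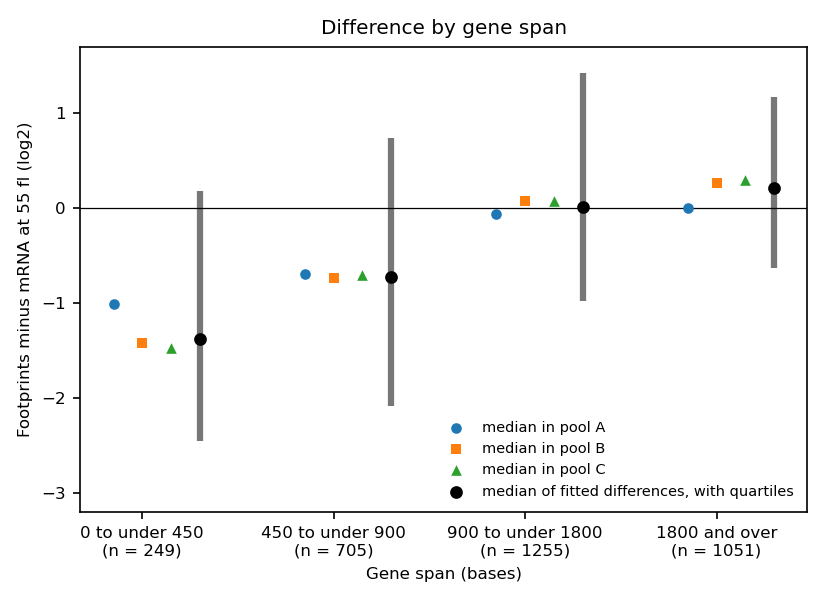
Footprint minus mRNA difference at 55 fl (vertical, log2) in 4 classes of gene span (horizontal, bases); coloured points are the class medians in pools A, B and C and black points the medians of the fitted differences with a bar from the lower to the upper quartile. The class medians rise with span in each pool, and the quartile bars overlap between classes.

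The 55 fl pools were then set against the other 7 sizes, to see whether ribosome density there was particular to this size. For translational efficiency no gene passed the test (0 of 3301, 0% called; edgeR, with 41 genes at an unadjusted p under 0.05; DESeq2 also called 0, with 60, and limma-voom 0, with 30). Of the footprint libraries at other sizes, 6 held under 150000 reads; without their pools the count was also 0. Against 75 fl no gene passed (0%, with 39 at an unadjusted p under 0.05; DESeq2 0, with 46). Without pool A 1 gene did, DBP2, an RNA helicase (3.12, SE 0.52, adjusted p = 0.00248). Against 40 fl 1 gene passed, 0.0303% of those tested: MIG2, a repressor of glucose-repressed genes, which was lower at 55 fl (-4.05, SE 0.82, adjusted p = 0.0437). This call was lost with pool as a block (adjusted p = 0.0532), with limma-voom (1.00), without the shallow pools (0.197), and without pool A (0.102), B (0.157) or C (1.00).

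For mRNA 4 genes were higher at 55 fl than at the other sizes, 0.121% of those tested. They were NCA3 (1.16, SE 0.19), HSL1, a kinase of the morphogenesis checkpoint (1.26, SE 0.21), RAD27 (1.34, SE 0.24) and SKG6 (0.89, SE 0.17). Without pool A 26 genes were called, and without pool B or without pool C 0. For footprints no gene passed (0%, with 38 at an unadjusted p under 0.05; DESeq2 0, with 57). The footprints of the 4 genes differed by 0.90 (SE 0.55), 0.48 (SE 0.83), 1.14 (SE 0.52) and 0.64 (SE 0.47) in the same order.

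The size of 55 fl had been singled out as that of the G1/S transcript peak in these data, so that the levels of the G1/S list at this size are a description and no evidence of that peak. Of its 59 listed members 13 were counted. Their medians between 55 fl and the other sizes were 0.80 for footprints and 0.81 for mRNA, beside 0.03 and -0.01 over all genes. No member passed in footprints and 1, RAD27, in mRNA, and RFC4 was near 0 in both assays. Their translational efficiency had a median difference of -0.06, and none of the 13 had an unadjusted p under 0.05 there. RAD27 differed by 1.14 (SE 0.52) in footprints and 1.34 (SE 0.24) in mRNA, and by -0.22 (SE 0.59) in efficiency. ASF1 differed by 0.55 (SE 0.60) in footprints and 1.28 (SE 0.30) in mRNA, and by -0.73 (SE 0.69) in efficiency. The standard errors of footprints were larger than those of mRNA for all 13 genes, and differences of efficiency within them could not be detected at this depth.

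**Figure D5:**
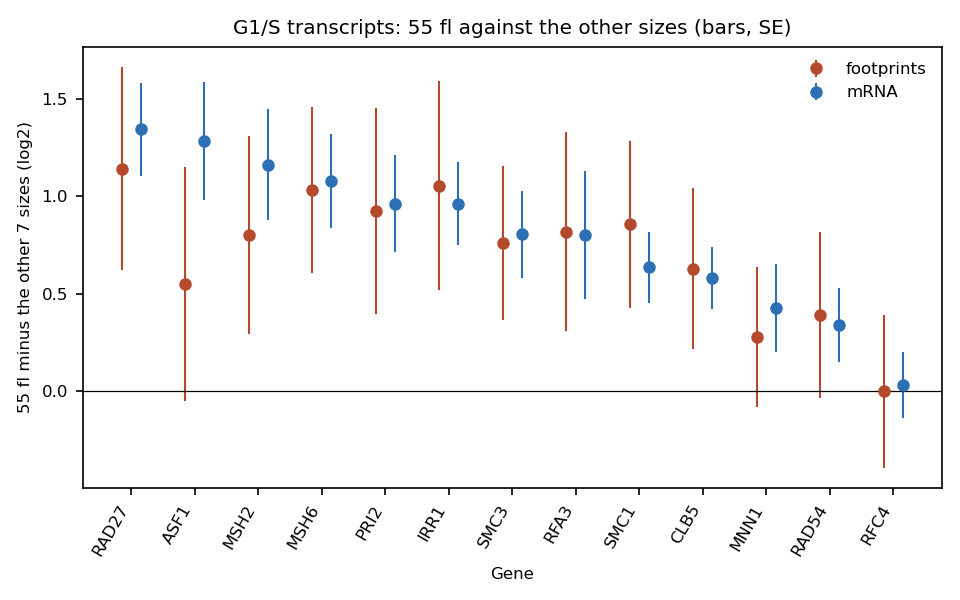
Difference between 55 fl and the mean of the other 7 sizes (vertical, log2, bars are SE) for the 13 counted G1/S genes (horizontal), footprints in red at the left and mRNA in blue at the right of each pair. RFC4 is near 0 in both assays, RAD27 is the highest in both, and the footprint bars are the longer ones.

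No counted gene of fatty acid synthesis passed the test of efficiency between 55 fl and the other sizes. ACC1 differed from the other sizes by 0.01 (SE 0.45) in efficiency, FAS1 by -0.04 (SE 0.48) and FAS2 by -0.09 (SE 0.50). Relative to the median gene of each pool, the efficiency of ACC1 was 1.83 ± 0.34 in 40 fl cells, 2.87 ± 1.00 in 55 fl cells, 4.12 ± 0.34 in 60 fl cells and 3.33 ± 0.60 in the largest, 75 fl (SD, n = 3 each). At 45, 50, 65 and 70 fl it was 2.50 ± 0.14, 3.51 ± 0.70, 4.09 ± 0.15 and 3.21 ± 0.50. The 55 fl value thus ranked 6 of the 8 sizes, below that at 50 fl. Against 40 fl the 55 fl value of ACC1 was higher by 1.23 (SE 0.60) and did not pass (adjusted p = 0.998). For OLE1 the spread between pools at 55 fl was the largest of these enzymes, 1.31 ± 2.45.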

How the data were processed

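Messenger RNA (poly(A) selected) and ribosome footprints (RNase I fragments depleted of ribosomal RNA, per the labels' protocols) were compared in 3 pools at 55 fl, grouped by assay and labelled size. The authors deposited raw read counts per gene, with no normalization, and no source states the rule for shared or overlapping genes or for strand. The submitters' processing notes list, with no roles, RSEM 1.2.20, TopHat2 2.1.0 and Bowtie 1.1.2 beside SAMtools 1.3-1, cutadapt 1.8, bcl2fastq 2.17.1.14 and build R64. The count tables do not name their assay. It was checked against a table of normalized log2 levels deposited by the authors, whose header names both blocks and which served no other purpose. With each library centred, 47 of 48 columns were closer to the block of their own assay, and with each gene centred as well, a second measure tried after seeing the first, 46 of 48. The columns that were not are footprint libraries at 50 and 65 fl, among the shallowest, and all 6 columns at 55 fl matched by both measures. Per the labels, the pools are independent experimental replicates.

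The 6 libraries entered a quasi-likelihood test in edgeR 4.0.16 under R 4.3.3, with TMM factors computed jointly and without a pool block. Those factors were 0.594, 0.710 and 0.756 for footprints and 1.57, 1.37 and 1.46 for mRNA in pools A, B and C. CPM are counts relative to the library total so scaled, and log2 CPM used a prior count of 2. The 55 fl values were set against other sizes in 1 fit of 48 libraries with factors within each assay. A gene was called at an adjusted p (Benjamini-Hochberg) under 0.05. Per the labels the 2 assays of a pool share their cells, which pairs the libraries. Their deviations from the group means correlated with r of 0.33, 0.26 and 0.25 in pools A, B and C, but footprints of B against mRNA of C gave 0.33, so that these values set pool A apart and do not tell B from C. Alternatives were the pool block, median-of-ratios factors, DESeq2 1.42.0, limma-voom (limma 3.58.1), other filters, thinned footprints and leaving out each pool. Code was tested on simulated data.

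Members and gene lists were chosen with earlier results of these data known. Named genes were the 10 highest and 10 lowest calls with at least 20 CPM of mRNA, at least 20 footprint reads and 1 sign in all pools, 3 genes per list by smallest p, a panel, and calls against other sizes; not all are printed, and other list members were chosen after their values were seen. Names matched the R64 reference table for 3260 of 3301 genes. Planned comparisons by protein length and start context were replaced by gene span, as no sequences were used here. Plots used matplotlib 3.10.9 (Python 3.11.15).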

Additional observations from a re-analysis of the deposited data

Results flagged for a closer look

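MIG2, a repressor gene of glucose repression, was flagged because its translational efficiency differed between 55 fl and 40 fl by an interaction test (-4.055 log2, SE 0.82, edgeR adjusted p = 0.0437). It had 6, 19 and 30 footprint reads in pools A, B and C at 55 fl, against 15, 102 and 120 at 40 fl. It had 372, 175 and 144 mRNA reads at 55 fl, against 93, 12 and 10 at 40 fl. Pools B and C at 40 fl thus held 10 to 12 mRNA reads, close to the lowest count in the table. The adjusted p over the alternatives ran from 0.0145 (DESeq2) to 1.00 (limma-voom and without pool C), and it was 0.0532 with pool as a block. A cause was not tested.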

How the results depend on the processing

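Of 138 genes followed one by one, 121 kept their direction and their side of the threshold under every alternative that gave a value. With factors computed within each assay 523 genes were higher and 2003 lower, by the construction of that scaling; 4 genes were called in the opposite direction. Leaving out 1 pool gave 825 to 1255 higher and 828 to 1304 lower. Efficiency at 55 fl against 40 fl gave 0 calls with the pool block, with limma-voom and without the shallow pools, and 0 whichever pool was left out; against 75 fl leaving out a pool gave 0 to 1. For mRNA against the other sizes there were 9 calls with the pool block, 18 with DESeq2, 2 with limma-voom, 0 without the shallow pools and 0 to 26 when a pool was left out. Signs turned, in genes that had not passed the test, as follows. With factors within each assay values were -0.96 for HTA2, -0.066 for HHF1, -0.57 for HHT1, -0.86 for HHT2, -0.067 for CLN3, -0.87 for MNN1 and -0.84 for RFC4. That scaling moved the median gene by -1.10, and MNN1 passed as lower there (edgeR adjusted p = 0.0213). With at least 10 reads in every library they were -0.20 for HTA2, -0.078 for HHT2 and -0.015 for MNN1. HTA2 was -0.11 with the pool block, -0.041 with limma-voom, and -0.39 to 0.29 when a pool was left out. The cause of the turns under the other settings was not tested. Beyond HHF1, HHF2 and CPA1, which passed, the block of pools (the replicate pairing; 1127 higher, 1205 lower) changed the call of none of these 138 genes. Footprint pool A, the shallowest of the 3, limits genes of few reads, and intervals at other sizes are limited by 6 footprint libraries under 150000 reads.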
